A study of Mus musculus with 4 samples.

Results

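The p53 pathway was followed through 32 listed genes, p53 itself, its regulators and its best known targets, in murine embryonic stem cells (CM7/1) made to overexpress Hey1 or Hey2. Members were taken by symbol: every probe set, the group of probes that reads a transcript, whose platform annotation gave a listed gene as its only symbol. This found 56 probe sets of 29 members among the 18194 genes named on the array, and Trp53, Bax and Gdf15 are not analysed here. Each gene was represented by its probe set of highest mean, and a gene was compared if it reached 6.05 on the log2 scale, the median of the deposited values, in at least 1 array. Of the members, 27 were compared out of 12098 genes, and Fas and Dram1 lay below that level.

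There were 4 single-colour Affymetrix arrays and 4 groups, so each group was 1 array: cells carrying Hey1 without induction, the same cells after doxycycline at 1000 ng/ml for 48 h, and cells carrying Hey2 in the same pair of states. Below they are named Hey1 cells and Hey2 cells, or the lines. The labels do not say how the factors were introduced or whether a line was a single clone, and none of the 4 arrays held cells without a factor that were given doxycycline, so the drug and the factor cannot be told apart. Values are RMA summaries on the log2 scale, which give every array the same distribution. A difference between a pair of arrays has no replicate check and no p-value, and fewer cells expressing a gene cannot be told apart from less RNA per cell.

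The single probe set of Hey1 read 6.73 in uninduced and 6.51 in treated Hey1 cells, and 6.72 and 6.25 in Hey2 cells. That of Hey2 read 4.84 and 4.51 in Hey1 cells and 4.25 and 4.34 in Hey2 cells. In its own line the Hey1 probe set differed by -0.23 after treatment and the Hey2 probe set by 0.09, the latter at values below the level filter. The labelled overexpression is therefore not seen here, the treated arrays are called "labelled induced", and each direction rests on the labels. All 10 embryonic stem cell markers passed the level filter, among them Pou5f1 at 13.7 to 13.8. With treatment only Klf4 of the 10 differed by 0.5 or more, with -0.13 in Hey1 cells and 0.61 in Hey2 cells. Between the uninduced arrays only Nanog did, with -0.54 for Hey2 minus Hey1 cells. Of 10 fibroblast markers 8 lay below the filter in each array. Of the others, Thy1 read 7.13 and 7.80 in Hey1 cells against 5.51 and 5.73 in Hey2 cells. Col1a2, near the level filter, did not share that gap, with 6.04 and 6.13 in Hey1 cells against 6.27 and 5.89 in Hey2 cells. Of 20 markers of endoderm, mesoderm, neuroectoderm and trophoblast 12 passed the filter, and a few differed with treatment. The neuroectoderm marker Sox1 had -0.78 and -1.07, with 4 of the 5 neuroectoderm markers below 0 in both lines. The endoderm marker Sox7 had 0.48 and 1.18, but the other one compared, Sox17, had -0.02 and -0.22. The trophoblast marker Tfap2c had 0.60 and 0.27, and the other one compared, Hand1, had 0.21 and -0.74. Of 3 mesoderm markers compared 2 were below 0 in both lines, among them Kdr with -0.08 and -0.55, and 1 was above. The part of such cells in the results below was not tested.

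p53 is a transcription factor that is kept low by the ubiquitin ligase Mdm2 and its partner Mdm4, and that accumulates when DNA is damaged or a cell is otherwise stressed. Its targets halt the cell cycle, repair DNA, supply nucleotides, adjust metabolism or start apoptosis, and several, Mdm2 among them, act back on p53. Embryonic stem cells express p53 strongly, and there it is known for promoting differentiation and the death of damaged cells.

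The p53 pathway genes differed modestly between the arrays of a line. More of them were lower than higher in the arrays labelled induced, as held to a lesser degree for all genes. The median of the 27 members was -0.10 in Hey1 cells and -0.09 in Hey2 cells, beside -0.01 and -0.02 over all genes compared. In Hey1 cells 19 members were below 0, where 53.1% of all genes were, and in Hey2 cells 17, where 54.3% were. Below 0 in both lines were 15 of the 27, beside 35.5% of all genes, and above 0 in both were 6, beside 28.1%. These lines share no array. Plotted against each other over the 27 members, the differences gave Pearson's r = 0.58 and Spearman's rho = 0.59, beside 0.41 and 0.37 over all 12098 genes, which only describes genes read on the same 4 arrays.

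The sizes were small. No member reached 2-fold in either line, where 0.471% of all genes did in Hey1 cells and 0.926% in Hey2 cells. At a step of 0.5 on the log2 scale, 0 members were higher in Hey1 cells (2.47% of all genes) and 0 lower (0.951%). At the same step 0 members were higher in Hey2 cells (4.4%), and 1, Perp, was lower (4.25%). A step of 0.25, taken after the values were seen, was reached by 6 members on the lower side in Hey1 cells (7.6% of all genes) and by 7 in Hey2 cells (16.7%). On the higher side it was reached by 2 members in Hey1 cells (9.32%) and 1 in Hey2 cells (13.7%). Btg2, Perp, Phlda3 and Zmat3 were lower by that step in both lines, as were 3.44% of all genes, and Rrm2b alone was higher by it in both, as were 4.55%. For scale, the scaled median absolute deviation of the difference over all genes was 0.16 in Hey1 cells and 0.22 in Hey2 cells. Among 12 members with more than 1 probe set above the filter, probe sets of a gene differed with an SD of 0.15 in Hey1 cells and 0.14 in Hey2 cells.

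**Figure D1:**
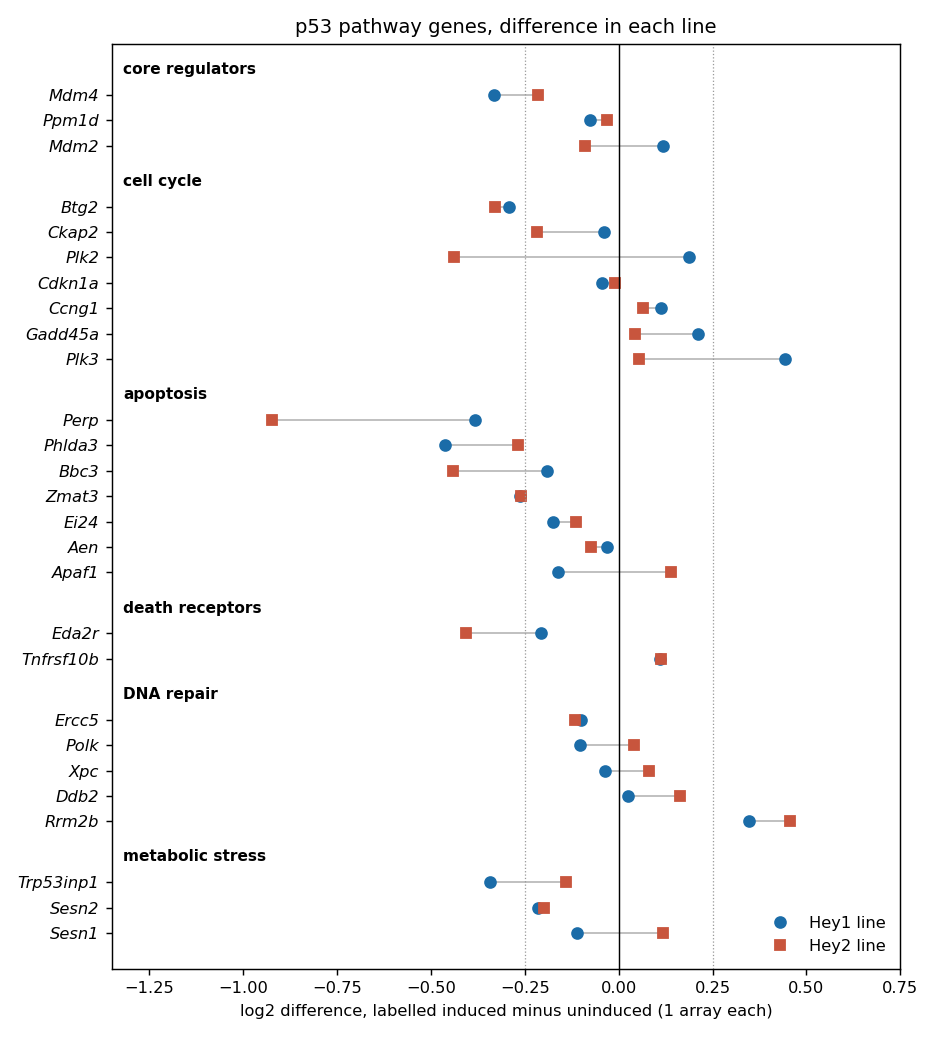
Log2 difference, labelled induced minus uninduced, for the 27 compared p53 pathway genes, grouped by role, with a blue circle for the Hey1 line and a red square for the Hey2 line (1 array per state) and dotted lines at 0.25 either way. Both points of Perp, Phlda3, Zmat3 and Btg2 lie left of the lower dotted line, and both points of Rrm2b lie right of the upper one.

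A shared response was fitted with limma over all 12098 genes with the line as a block, which takes induction of Hey1 and of Hey2 as repeats of 1 treatment and leaves 1 residual degree of freedom per gene. Each SE given with limma is moderated, as the variance of a gene is drawn toward a value pooled over all genes. It is therefore not the gene's own spread. No gene passed an adjusted p of 0.05, so 0% of all genes and 0 members were called. The lowest adjusted p among the members was 0.30, that of Rrm2b. At an unadjusted p of 0.05 there were 8 of the 27 members, Bbc3, Btg2, Eda2r, Mdm4, Perp, Phlda3 and Zmat3 on the lower side and Rrm2b on the higher, beside 13.2% of all genes. When the prior variance was allowed a trend with level and robust to outlying genes, Perp and Phlda3 were called lower by limma, at adjusted p of 0.032 and 0.036 (1.59% of all genes were called lower), and 0 members higher (1.99%). Over 8 settings of the fit the adjusted p ran from 0.032 to 1 for Perp and from 0.036 to 1 for Phlda3, and this was the only setting under 0.05 for either.

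Of the core regulators, Mdm4, the partner that covers p53's activation domain, read 10.50 before and 10.17 after treatment in Hey1 cells, and 10.43 and 10.22 in Hey2 cells. Both labelled induced arrays lay below both uninduced arrays. The mean difference was -0.27 ± 0.09 (SE, n = 2 lines, adjusted p = 0.34 by limma). The probe sets of Mdm4 did not all differ alike. A second had -0.23 and -0.08, and another had 0.05 in Hey1 cells and -0.55 in Hey2 cells.

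Mdm2, which marks p53 for degradation and is also a p53 target, read 10.23 and 10.35 in Hey1 cells and 10.42 and 10.33 in Hey2 cells. Its differences of 0.12 and -0.09 point opposite ways and are within the spread between probe sets. Its second probe set had 0.09 and 0.01. Ppm1d, the phosphatase Wip1 that switches the damage response off, had -0.08 and -0.03.

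Cdkn1a encodes p21, the cyclin-dependent kinase inhibitor through which p53 stops the cell cycle. It read 9.56 and 9.52 in Hey1 cells and 9.40 and 9.39 in Hey2 cells. The differences of -0.05 and -0.01 are among the smallest of the members, and the mean was -0.03 ± 0.08 (SE, n = 2 lines, adjusted p = 0.90 by limma). A second Cdkn1a probe set was lower, by -0.18 and -0.24.

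The other cell cycle genes went both ways. Btg2, an antiproliferative gene, read 9.61 and 9.32 in Hey1 cells and 9.31 and 8.98 in Hey2 cells. Its differences were -0.29 and -0.33, its second probe set had -0.23 and -0.18, and its mean was -0.31 ± 0.08 (SE, n = 2 lines, adjusted p = 0.31 by limma). Ckap2, which stabilises spindle microtubules, had -0.04 and -0.22.

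Gadd45a, a growth arrest gene, read 10.24 and 10.45 in Hey1 cells and 10.11 and 10.15 in Hey2 cells. Ccng1, the cyclin G1 gene, had 0.11 and 0.07 at its representative probe set and opposite signs among its 3 probe sets, from -0.11 to 0.15 in Hey1 cells. The stress kinase gene Plk3 read 7.96 and 8.40 in Hey1 cells and 8.49 and 8.55 in Hey2 cells. The uninduced Hey1-line array stood apart as the lowest, and the difference was 0.44 there against 0.05 in Hey2 cells. Plk2, a related kinase gene, is the member whose lines differed most. It read 8.79 and 8.98 in Hey1 cells and 9.21 and 8.77 in Hey2 cells, differences of 0.19 and -0.44. A second Plk2 probe set, below the level filter, had -0.34 and 0.00019, so the opposite directions rest on the representative one. Gaps of 0.5 or more between the responses of the lines were seen for Plk2 and Perp, beside 7.91% of all genes. They use all 4 arrays and were not tested.

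p53 binds a pair of decamers, each with a C and a G set around A or T bases. The 250 bases before each RefSeq gene start (GRCm38.p6) were searched for a match to this p53 half-site, which reads alike on both strands. They were also searched on both strands for CACGTG and CACGCG, 6-base elements bound by repressors of the Hes and Hey families. The table of starts held 25 of the 32 members. Perp, Zmat3 and Rrm2b are not among them. A half-site match stood before a start of 12 of these 25 genes, where 8.2% of the 27025 genes in the table had one. A pair of nearby half-sites, which is what p53 binds, stood before a start of only 1 of the 25, Cdkn1a (0.0666% of all genes). CACGTG stood before a start of 5 of the 25 (6.86% of all genes) and CACGCG of 4 (8.65%). Matches are shown, with 30 bases on either side where these fit before the start, for 5 genes with a p53 half-site whose differences stayed under 0.25 in both lines, and for Bbc3 and Plk2, which hold CACGCG and were lower by 0.25 or more in Hey2 cells. These were picked with their values known, and Apaf1, which also holds CACGCG, had 0.14 there. Capitals mark the match, and sequences run 5′ to 3′ on the gene's strand.
Cdkn1a, chr17:29090898-29090967, plus strand: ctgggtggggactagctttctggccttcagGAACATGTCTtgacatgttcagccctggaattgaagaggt
Ccng1, chr11:40755432-40755501, minus strand: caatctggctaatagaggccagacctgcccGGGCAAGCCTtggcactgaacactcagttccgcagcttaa
Mdm2, chr10:117710905-117710974, minus strand: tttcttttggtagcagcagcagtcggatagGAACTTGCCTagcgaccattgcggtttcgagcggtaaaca
Gadd45a, chr6:67037408-67037477, minus strand: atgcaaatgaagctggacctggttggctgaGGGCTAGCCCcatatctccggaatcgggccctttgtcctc
Ei24, chr9:36797335-36797374, minus strand: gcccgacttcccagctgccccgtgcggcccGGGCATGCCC
Bbc3, chr7:16309501-16309566, plus strand: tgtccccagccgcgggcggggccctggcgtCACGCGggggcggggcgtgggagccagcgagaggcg
Plk2, chr13:110394823-110394888, plus strand: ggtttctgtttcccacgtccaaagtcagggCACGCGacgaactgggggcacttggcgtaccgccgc
Cdkn1a holds 2 matches in these 250 bases, and the one in capitals ends 42 bases before the more upstream of its 2 listed starts. The matches end 176 bases before the start in Ccng1, 177 in Mdm2, 31 in Gadd45a, 1 in Ei24 and 186 in Plk2. That of Bbc3 ends 47 bases before the most upstream of its listed starts. Not shown for Bbc3 are CACGTG and another CACGCG, which end 59 and 5 bases before its most downstream start. Of the members lower by 0.25 or more in both lines, Btg2 and Phlda3 are in the table. No p53 half-site, CACGTG or CACGCG matched in their 250 bases. A match is only a run of letters and was not tested for binding.

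**Figure D2:**
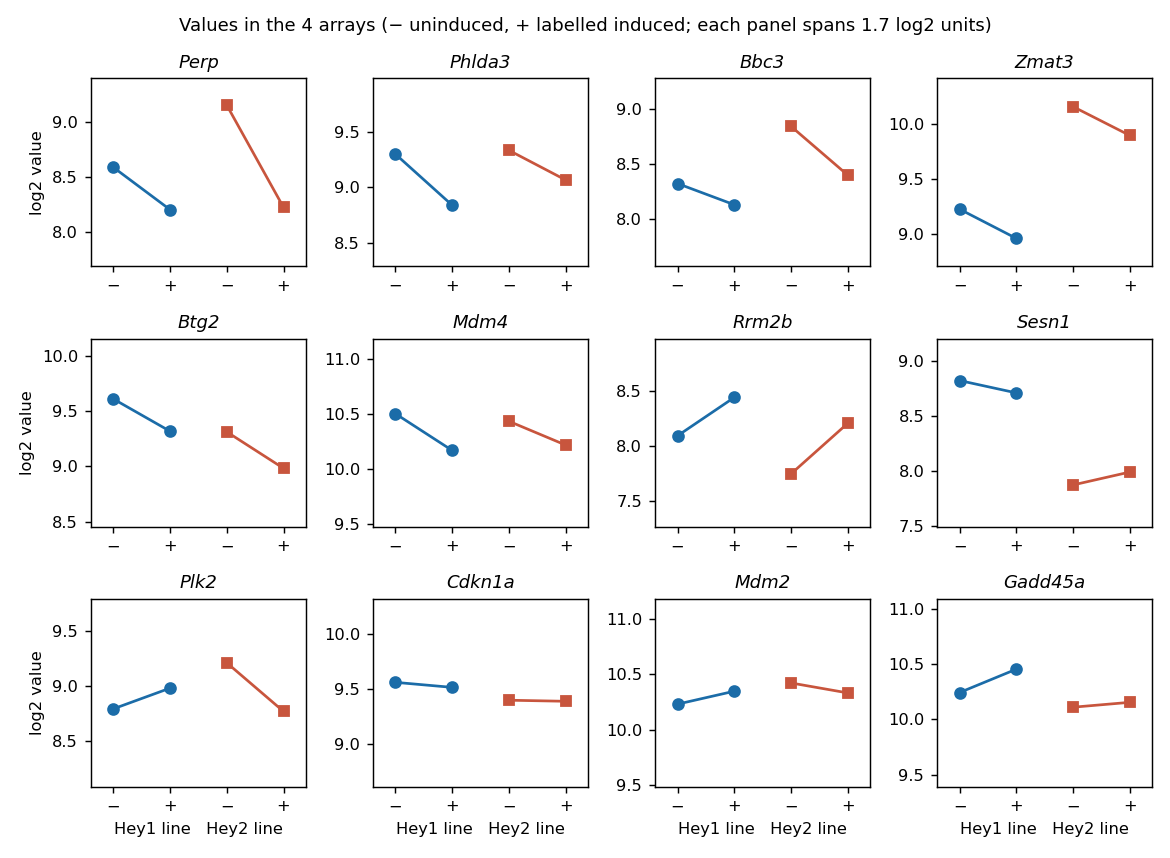
Log2 values of 12 p53 pathway genes in the 4 arrays, 1 point per array, with the Hey1 line in blue and the Hey2 line in red; − is uninduced, + is labelled induced, and every panel spans the same range of log2 units. Perp, Phlda3, Bbc3, Zmat3, Btg2 and Mdm4 slope down in both lines, Rrm2b slopes up in both, Plk2 slopes opposite ways, and Zmat3 and Sesn1 are separated by line.

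Members grouped here under apoptosis inside the cell, not all of which carry it out, were mostly lower in the arrays labelled induced. The members were chosen with earlier results of these data known, and Bax was not analysed. Pmaip1, an apoptosis gene placed in another list and given further on, was higher, by 1.48 in Hey1 cells and 0.69 in Hey2 cells. Of the 7 compared members of the group, 6 were below 0 in both lines, as were 35.5% of all genes. The group's medians were -0.19 in Hey1 cells and -0.26 in Hey2 cells, beside -0.01 and -0.02 for all genes. Perp, a membrane protein gene induced by p53 during apoptosis and also a part of cell junctions, read 8.59 and 8.20 in Hey1 cells and 9.15 and 8.22 in Hey2 cells. The labelled induced arrays of the lines lay within 0.02 of each other and below both uninduced arrays, of which the Hey2 array was the higher. It was 1.30-fold lower in Hey1 cells and 1.90-fold lower in Hey2 cells, and 0.331% of all genes had a lower difference than Perp in Hey2 cells. The mean was -0.65 ± 0.16 (SE, n = 2 lines, adjusted p = 0.30 by limma). With uninduced Hey1 cells as the reference instead, the Hey2-cell difference of Perp became -0.36. That value also holds the line difference of the uninduced arrays, 0.56 for Hey2 minus Hey1 cells.

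Phlda3, which restrains the survival kinase Akt, read 9.30 and 8.84 in Hey1 cells and 9.34 and 9.07 in Hey2 cells. The uninduced arrays nearly coincided and both labelled induced arrays were below them. The mean difference was -0.37 ± 0.09 (SE, n = 2 lines, adjusted p = 0.31 by limma), and 1.28% of all genes had a lower difference in Hey1 cells.

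Bbc3 encodes Puma, a BH3-only protein that triggers mitochondrial apoptosis. It read 8.32 and 8.13 in Hey1 cells and 8.84 and 8.40 in Hey2 cells, so that each line's labelled induced array was the lower, while the Hey2 line stayed above the Hey1 line in both states. Its mean difference was -0.32 ± 0.10 (SE, n = 2 lines, adjusted p = 0.35 by limma). Zmat3, an RNA-binding protein gene, had differences of -0.26 in both lines on levels about 1.90-fold apart, given further on.

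Ei24, a gene of the endoplasmic reticulum, had -0.17 and -0.11, and the nuclease gene Aen had -0.03 and -0.07. Other probe sets of Aen went from -0.24 to 0.11 in Hey2 cells. Apaf1, the scaffold of the apoptosome, was the exception of the group, with -0.16 in Hey1 cells and 0.14 in Hey2 cells.

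Of the death receptor genes, Eda2r, the receptor for ectodysplasin A2, read 9.46 and 9.25 in Hey1 cells and 9.56 and 9.16 in Hey2 cells. Both labelled induced arrays were below both uninduced arrays, and the mean was -0.31 ± 0.09 (SE, n = 2 lines, adjusted p = 0.34 by limma). Tnfrsf10b, a TRAIL receptor gene, lay at the level filter with 5.98 to 6.13 and had 0.11 in each line. Fas stayed between 3.78 and 4.01.

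Genes of DNA repair and nucleotide supply held the 1 member higher by 0.25 or more in both lines. Rrm2b encodes the p53-induced small subunit of ribonucleotide reductase, which makes deoxynucleotides outside S phase. It read 8.09 and 8.44 in Hey1 cells and 7.75 and 8.20 in Hey2 cells, 1.27-fold and 1.37-fold higher after treatment. Its labelled induced arrays were the top 2 of the 4. All 4 of its probe sets were higher in both lines, by 0.28 to 0.42 in Hey1 cells and by 0.46 to 0.91 in Hey2 cells, although a pair of them read below the level filter. With uninduced Hey1 cells as the reference instead, the Hey2-cell difference became 0.11. That value also holds the line difference of the uninduced arrays, -0.35 for Hey2 minus Hey1 cells. The mean was 0.40 ± 0.08 (SE, n = 2 lines, adjusted p = 0.30 by limma).

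The repair genes proper stayed close to 0 at their representative probe sets. The damage recognition genes Ddb2 and Xpc had 0.03 and 0.16, and -0.04 and 0.08. A second Ddb2 probe set had -0.09 and 0.20. The gene of the translesion polymerase Polk had -0.10 and 0.04. Its second probe set, near the level filter at 5.90 to 6.22, had -0.01 in Hey1 cells and 0.32 in Hey2 cells. Ercc5, the gene of the excision nuclease XPG, had -0.10 and -0.12.

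The 3 compared genes of metabolic stress and autophagy had medians of -0.21 in Hey1 cells and -0.14 in Hey2 cells. Trp53inp1, which promotes autophagy and cell death, read 12.08 and 11.74 in Hey1 cells and 11.98 and 11.84 in Hey2 cells. Sesn2, a sestrin gene that restrains mTORC1, read 9.13 and 8.92 in Hey1 cells and 9.49 and 9.29 in Hey2 cells, differences of -0.21 and -0.20 at this probe set. Its second probe set had -0.01 and -0.18.

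Sesn1, a second sestrin gene, depended on the probe set. The representative one had -0.11 in Hey1 cells and 0.12 in Hey2 cells. The others above the filter had 0.54 and 0.30, and 0.23 and 0.41, which is higher in both lines. Dram1, a lysosomal gene of p53-induced autophagy, stayed between 5.08 and 5.62, below the level filter.

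The lines also differed from each other before induction, and a few members were further apart between lines than between states. Zmat3 read 9.23 in uninduced Hey1 cells and 10.15 in uninduced Hey2 cells, and 8.96 and 9.89 in the labelled induced arrays. The Hey2 line was 1.90-fold higher without and 1.91-fold higher with treatment. Sesn1 ran the other way, with 8.82 and 8.71 in Hey1 cells against 7.88 and 7.99 in Hey2 cells. Its 3 probe sets above the filter were all lower in uninduced Hey2 cells, by -0.82 to -0.94. At the step of 0.5, 4 members were higher in uninduced Hey2 cells, Bbc3, Perp, Plk3 and Zmat3 (6.6% of all genes), and 1, Sesn1, was lower (6.29%). No member reached 2-fold, as 1.96% of all genes did.

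The line difference was held in both states by Zmat3 on the higher side, as by 3.52% of all genes, and by Sesn1 on the lower side, as by 2.37%. For Perp it shrank from 0.56 to 0.02, for Plk3 from 0.53 to 0.14 and for Bbc3 from 0.52 to 0.27. These comparisons share no array, and over the 27 members they gave Pearson's r = 0.79 and Spearman's rho = 0.70, beside 0.67 and 0.59 over all genes, again as a description.

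With limma, on both states with the state as a block, 0.918% of all genes were called different between the lines. Zmat3 was the 1 member among them, higher in Hey2 cells by 0.93 ± 0.08 (SE, n = 2 states, adjusted p = 0.047 by limma). Sesn1 had -0.83 ± 0.10 (adjusted p = 0.054) and Sesn2 0.37 ± 0.08 (adjusted p = 0.090). Over 8 settings the adjusted p of Zmat3 ran from 3.73e-06 to 0.081 and was under 0.05 in 6, and that of Sesn1 ran from 0.000128 to 0.071 and was under 0.05 in 5. Each line has 2 arrays, and no label gives separate cultures. The SEs and p-values rest on the gap between the responses of the lines to treatment, and largely on its value pooled over all genes. That gap may be technical or a true difference between the responses, and it is not a spread of replicates.

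**Figure D3:**
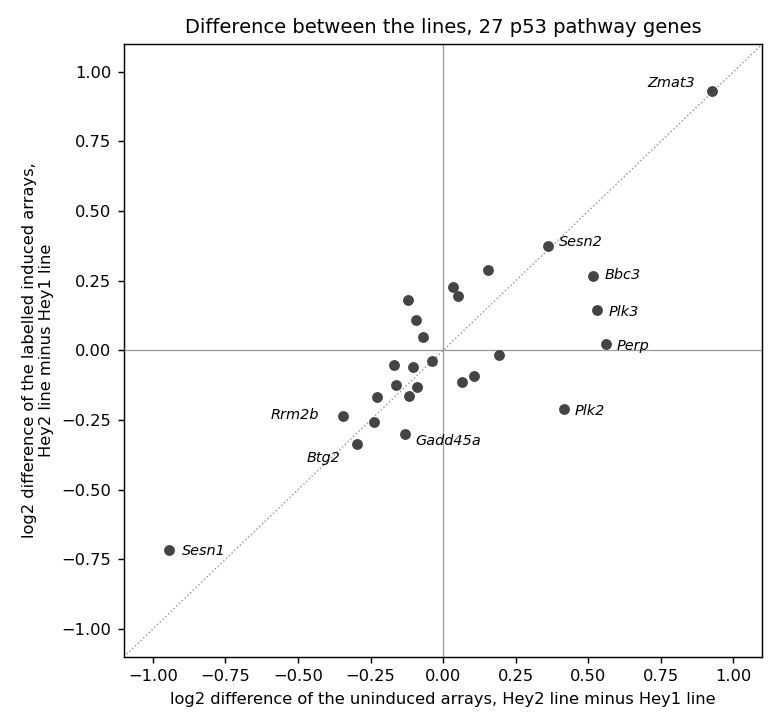
Log2 difference of Hey2 cells minus Hey1 cells for the 27 p53 pathway genes, uninduced arrays on the horizontal axis and labelled induced arrays on the vertical axis, 1 point per gene, with a dotted line of equality. Zmat3 and Sesn1 lie far from 0 near the line, and Perp, Plk3 and Plk2 lie right of it.

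The reference array matters for the members that differed between the lines. A difference from the other line's uninduced array is the line's own response plus the gap between the uninduced arrays. It is therefore not a response to treatment alone. With uninduced Hey1 cells as the reference instead, the Hey2-cell differences of Zmat3, Sesn2 and Bbc3 turned from -0.26, -0.20 and -0.44 to 0.67, 0.16 and 0.08. With uninduced Hey2 cells as the reference, the Hey1-cell differences of Btg2 and Plk3 turned from -0.29 and 0.44 to 0.01 and -0.09. Of 4 controls for RNA quality, 2 differed between the arrays of Hey2 cells. The log2 difference of the 3′ and 5′ control probe sets of Tfrc was 0.67 in its uninduced and 0.96 in its labelled induced array, against 0.95 and 0.84 in Hey1 cells. That of Pcx was 1.33 and 1.56 in Hey2 cells against 1.38 and 1.43 in Hey1 cells. Those of Gapdh and Actb were close in Hey2 cells, at 0.012 and 0.032 and at 0.39 and 0.42. The part of RNA quality in these results was not tested.

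Other genes of the pathway were described as lists. Of 40 further p53 targets 35 were compared, with medians of -0.11 in Hey1 cells and -0.07 in Hey2 cells. Below 0 in both lines were 22 of them, beside 35.5% of all genes, and above 0 in both were 7, beside 28.1%. Pmaip1, the gene of the BH3-only protein Noxa, was the 1 gene of this list at 0.5 or more in the same direction in both lines. It read 7.81 and 9.30 in Hey1 cells and 8.02 and 8.72 in Hey2 cells, opposite to Bbc3 (differences of 1.48 and 0.69, adjusted p = 0.29 by limma). None of the list passed limma's adjusted p of 0.05. With the trended robust prior 3 were called lower (1.59% of all genes), the nucleotide enzyme gene Ak1 and the genes Psrc1 and Pltp, and 1 higher (1.99%), the mTORC1 inhibitor gene Ddit4, which is also in the Atf4 list.

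The 25 compared upstream regulators had medians of -0.03 and 0.00. Below 0 in both lines were 11 (35.5% of all genes), and above 0 in both were 7 (28.1%). The kinase genes Atm and Atr, which sense DNA damage, had -0.07 and 0.11 in Hey1 cells and 0.53 and 0.66 in Hey2 cells, with lower uninduced Hey2-line values (9.03 and 9.10) than in the other arrays (9.55 to 9.69 and 9.54 to 9.76). They were named after their values were seen. Cell cycle genes that p53 lowers through p21 and the DREAM complex had medians of -0.03 and 0.03 over 19 genes. Of these 4 were below 0 in both lines (35.5% of all genes) and 5 above (28.1%).

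Some members are also targets of Atf4, the transcription factor of the integrated stress response. The list of other Atf4 targets used here includes Atf4 itself. Of its 15 genes compared 13 were above 0 in both lines (28.1% of all genes) and 0 below (35.5%), with medians of 0.22 and 0.38. With the trended robust prior limma called 5 of them higher (1.99% of all genes), and without it 0. The 5 compared members that are also Atf4 targets, Bbc3, Cdkn1a, Gadd45a, Sesn2 and Tnfrsf10b, had medians of -0.05 and -0.01, with 3 below 0 in both lines and 2 above. Without them, 12 of the other 22 members were below 0 in both lines and 4 above, and the medians were -0.10 in each line.

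**Figure D4:**
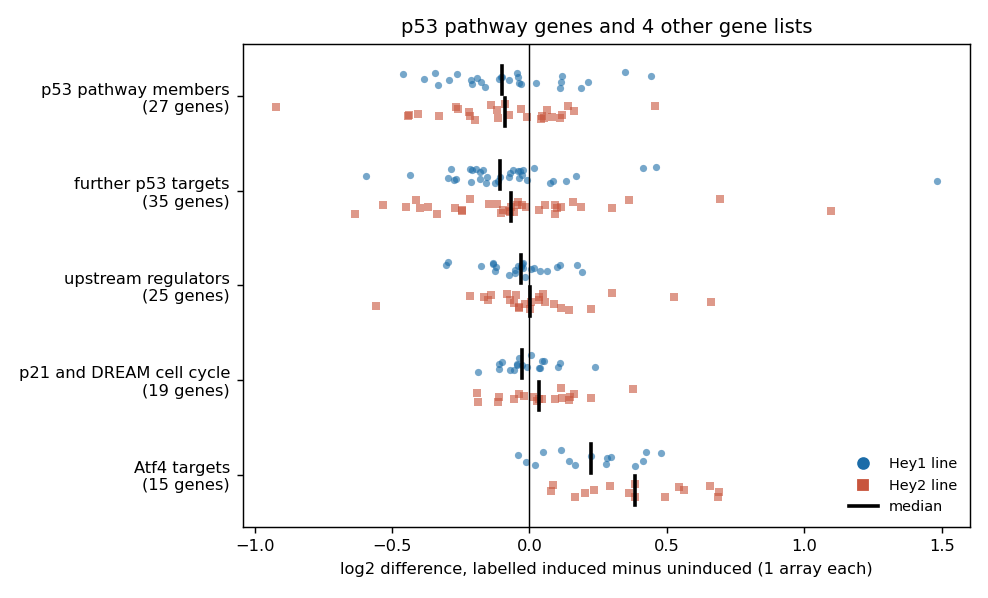
Log2 difference, labelled induced minus uninduced, for the p53 pathway genes and 4 other lists, 1 point per gene, blue circles for the Hey1 line, red squares for the Hey2 line, black bars for medians; points are spread vertically for visibility only. The medians of the p53 pathway genes and of the further p53 targets lie left of 0 in both lines. Those of the Atf4 targets, a list that includes Atf4 itself, are 0.22 and 0.38 and lie right of it.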

How the data were processed

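Expression was read on 4 Affymetrix arrays, 1 per group. Deposited values are log2 signals made by the authors with RMA, per the submitters' processing notes, which list no version. Sorted values of the arrays differed by at most 0.0024, so a shift of all genes could not be seen. Of 45101 probe sets, 34958 had 1 gene symbol, 932 several and 9211 none. A gene took its single-symbol probe set of highest mean, and was kept if 1 array reached 6.05. Members and lists were chosen with earlier results of these data known. Differences between arrays were taken on the log2 scale. limma 3.58.1 (R 4.3.3) fitted line and state together, with Benjamini-Hochberg adjustment over 12098 genes. Its estimates of planted changes were checked on simulated data with equal noise for every gene, unlike these data. That run is not used here as a check of the p-values. The text names every member, and of the other lists genes at 0.5 or more in 1 direction in both lines, or as stated. Alternatives changed the level filter, scaling, offset, probe-set rule, prior, block and reference array. The step of 0.25 and the counts in both lines were added after seeing the data. Promoter sequences are RefSeq's for GRCm38.p6, matched by symbol. The number of arrays limits the precision.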

Additional observations from a re-analysis of the deposited data

Results flagged for a closer look

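At its representative probe set Plk2 differed in direction between the lines. Its difference was 0.19 in Hey1 cells and -0.44 in Hey2 cells, so the Hey2-line response minus the Hey1-line response was -0.63. With 1 array per state in each line, this difference was not tested. A second Plk2 probe set, below the level filter, had -0.34 in Hey1 cells and 0.00019 in Hey2 cells. With the mean of its probe sets, the Hey1-cell difference changed sign and the lines no longer differed in direction.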

How the results depend on the processing

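The 22 alternative medians of the members moved by at most 0.1. With the mean of all probe sets the median of Hey2 minus Hey1 cells, both uninduced, went from -0.068 to 0.0081, and the median gap between the lines from 0.0039 to -0.011; the offset took that gap to -0.00035. Single differences of members changed sign in 5 of 54 cases with the mean of probe sets and in 0 of 54 with loess. With the other line's uninduced array as reference, 8 of 27 changed sign in Hey2 cells and 12 of 27 in Hey1 cells. That reference adds the gap between the uninduced lines to the response. Of the differences that changed sign, Zmat3 and Bbc3 in Hey2 cells and Btg2 and Plk3 in Hey1 cells had been at 0.25 or more. Other level filters leave each gene's difference as it was, and the offset cannot turn a sign, so these settings could not change any. Of 86 alternative counts 64 stayed within 1.5 times and 22 did not. In the line difference 1 member was called; this became 0 with no filter on level, 6 with a filter at the 75th percentile, 2 each with cyclic loess, an offset of 32 or the mean of all probe sets, and 5 with the trended robust prior. Genes called went from 111 to 1864 with the 75th percentile filter, 423 with loess, 1127 with the offset, 645 with the mean of probe sets and 2933 with the trended robust prior. In the common response genes called went from 0 to 4 with the 75th percentile filter and to 433 with the trended robust prior, which called 2 members. With no replicate block, 5 genes and 0 members were called in the line difference and 0 genes and 0 members in the common response. Averaging probe sets put 1 member at 0.5 or more higher in the Hey2 line, against 0. With the other line's uninduced array as reference, the step of 0.5 held 2 members higher and 4 lower in the Hey1 line, against 0 and 0, and 2 higher and 2 lower in the Hey2 line, against 0 and 1. The step of 0.25 then held 3 members higher in the Hey2 line, against 1. Fewer genes were tested under the stricter filter, and the other line's reference array adds the gap between the uninduced lines. For the rest the cause was not tested. No array could be left out, since each group is 1 array.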
